A study of Mus musculus with 108 samples.

Results

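Genomic bins that carried chromatin state 7 in the livers of young mice and had left it by 12 months under both diets were described. They are the autosomal bins of 200 bp labelled state 7 in SD 3m that had another label at 12 months under the standard diet as well as under caloric restriction, with adjacent bins merged, so the members were chosen by the state labels of the 3 groups. Of 12313718 autosomal bins, 236250 (1.92%) were in state 7 in SD 3m, and 58592 of these (11.7 Mb in 5757 regions) met the rule, which is 24.8% of them. A further 118487 bins (50.2%) stayed in state 7 in all 3 groups and are called kept here, while 6258 (2.65%) were lost in SD 12m only and 52913 (22.4%) in CR 12m only. Over all autosomal bins and all 8 states, 17.0% had another state than in SD 3m in both 12-month groups.

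The livers came from C57BL/6 female mice, and their chromatin was extracted from formalin-fixed, paraffin-embedded tissue for ChIP-seq of H3K4me3, H3K27me3, H3K27ac and H3K4me1. SD 3m comprised 8 mice of 3 months on a standard diet (30 libraries), SD 12m comprised 8 mice of 12 months on the same diet (29 libraries), and CR 12m comprised 9 mice of 12 months on 30% caloric restriction (29 libraries). The libraries of a group were merged before states were assigned, so each group has 1 segmentation, no difference could be set against the spread between mice, and every value is a description without a test. The read depth that supports each label is unknown. H3K4me3, the mark that state 7 holds weakly, came from 7 libraries at 3 months, 8 at 12 months on the standard diet and 5 under restriction, and an effect of this on the labels cannot be told apart from age or diet. Both 12-month groups are compared with the same SD 3m segmentation. The liver label was checked at the TSS of marker genes, where the hepatocyte genes Alb, Apoa1, Apob, Cyp2e1, Fgb and Serpina1a were in states 1, 3 or 4 in each group and the neuronal genes Neurod1 and Pax6 were in state 6 throughout. Markers of other liver cells were less uniform across SD 3m, SD 12m and CR 12m. Clec4f of Kupffer cells was in state 6 in all groups and Adgre1 in states 5, 6 and 8. The endothelial genes Stab2 and Pecam1 were in states 4, 7 and 4 and in states 2, 3 and 3. The stellate gene Lrat was in states 8, 6 and 8 and Reln in state 8 throughout, while the cholangiocyte genes Krt19 and Epcam were in states 8, 8 and 4 and in states 4, 4 and 8. Of the leukocyte genes reported, Cd3e was in state 6 in all groups and Ptprc in states 5, 5 and 8. The part of cell composition in the lost bins was not tested.

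A chromatin state is a recurring combination of histone marks that a hidden Markov model assigns to each bin. H3K4me3 marks active promoters, H3K27ac active promoters and enhancers, H3K4me1 enhancers, and H3K27me3 is deposited by Polycomb at silenced genes. In the model of the study, state 1 is the active TSS, state 2 flanks it, states 3 and 4 are active enhancers, state 5 is a poised enhancer, state 6 is Polycomb-repressed and state 8 carries none of the marks. State 7 combines weak H3K4me3 with little else and was assigned by the study to repeats and lamina-associated DNA. The study reported that its genome coverage rose with age on the standard diet, with the largest fold change of all states. Under caloric restriction the study found its coverage only slightly above that of young mice. The bins described here are those that left state 7, so their number does not show a net loss of the state.

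The sequences of the bin at the middle of 3 member regions show the DNA at the centre of the regions that the destinations turn on. They are the longest region of all and the longest regions found throughout in state 6 or in state 1 in both 12-month groups. They are printed on the plus strand of mm10 (GRCm38.p6), with CpG dinucleotides, the sites of DNA methylation, in capitals.
Longest region, chr5:145942601-145942800: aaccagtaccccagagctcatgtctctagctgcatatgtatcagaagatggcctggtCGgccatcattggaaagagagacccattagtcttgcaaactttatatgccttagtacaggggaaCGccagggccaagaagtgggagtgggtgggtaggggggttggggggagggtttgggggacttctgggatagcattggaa
State 6 in both, chr2:97470801-97471000: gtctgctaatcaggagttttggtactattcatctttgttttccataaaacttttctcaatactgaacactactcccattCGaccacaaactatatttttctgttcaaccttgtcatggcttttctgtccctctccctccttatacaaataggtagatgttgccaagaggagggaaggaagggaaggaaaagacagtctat
State 1 in both, chr2:30228401-30228600: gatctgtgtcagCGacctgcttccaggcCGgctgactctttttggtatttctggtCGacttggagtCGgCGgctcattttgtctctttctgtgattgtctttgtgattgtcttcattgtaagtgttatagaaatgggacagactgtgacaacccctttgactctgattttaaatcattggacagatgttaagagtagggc
The bin of the longest region was masked as repeat over 100% of its bases and held 2 CpG. The bin that turned to state 6 held 1 CpG and 30.5% repeat bases. The bin that turned to state 1 held 5 CpG, a number reached by 7.10% of autosomal bins, and 4.50% repeat bases.

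Most of the lost bins moved to state 8, the state without marks. In SD 12m 48604 of them (83.0%, Wilson 95% limits 82.6 to 83.3, which count bins and not mice) were in state 8, and in CR 12m 49570 (84.6%, 84.3 to 84.9). State 6 took 8.51% in SD 12m and 6.85% in CR 12m, and state 4 took 5.98% and 6.55%. State 1 took 1.60% in SD 12m and 1.01% in CR 12m, and state 5 took 0.881% and 0.701%. Across the 19 autosomes the share in state 8 ranged from 70.3% on chromosome 19 to 90.8% on chromosome 18 in SD 12m, and from 63.0% to 91.7% on the same chromosomes in CR 12m. Chromosome 19 instead had 19.02% of its lost bins in state 4 in SD 12m and 26.2% in CR 12m, and chromosome 2 had 18.3% and 16.5% in state 6. Bins lost in CR 12m only went to state 8 in 93.5% of cases, and bins lost in SD 12m only in 82.6%.

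The destination was the same under both diets for 51384 lost bins (87.7%, Wilson 95% limits 87.4 to 88.0). State 8 in both accounted for 45942 bins, state 6 in both for 2696, state 4 in both for 2160, state 1 in both for 424, state 5 in both for 142, state 3 in both for 19 and state 2 in both for 1. Among the bins with 2 different destinations, state 6 under the standard diet with state 8 under restriction was the most frequent pair (2275 bins), ahead of the reverse (1233 bins). State 8 under the standard diet with state 4 under restriction held 1217 bins, against 1016 for the reverse. Of the lost bins that SD 12m placed in state 6, 54.1% had that label in CR 12m too. For bins that left other states of SD 3m in both groups, the share with one common destination ranged from 67.5% (state 1) to 94.1% (state 8). Such shares depend on how frequent each destination was, which was not adjusted for.

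**Figure D1:**
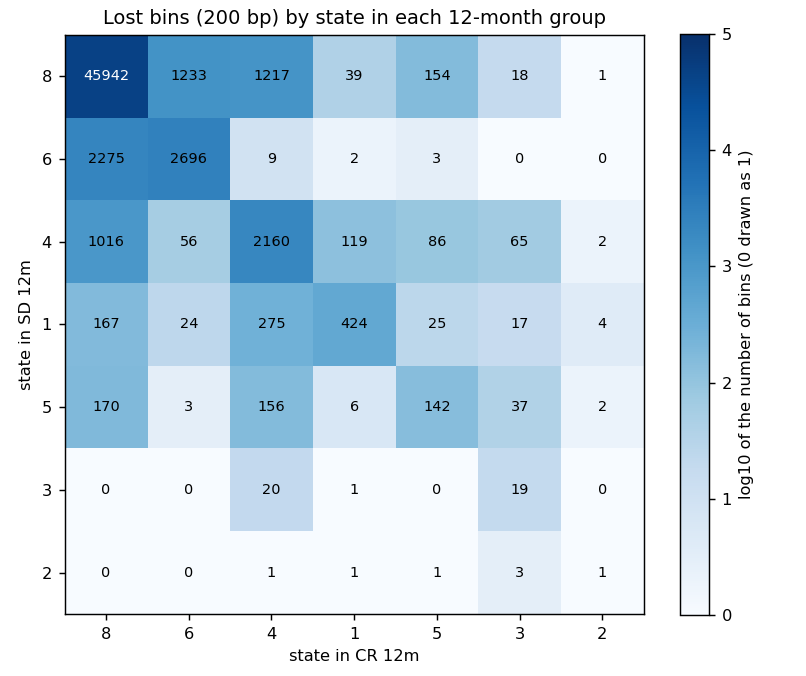
Number of lost bins of 200 bp by their SD 12m state (rows) and their CR 12m state (columns), with the colour on a log10 scale. The 45942 bins in state 8 in both groups stand apart from all other cells, and the next cells are state 6 in both (2696), state 6 then 8 (2275) and state 4 in both (2160).

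Short stretches, and the margins of long ones, lost the larger shares of their bins. Of 9678 unbroken state 7 stretches in SD 3m, 2567 (26.5%) were lost whole, 2466 (25.5%) were lost in part and 4645 (48.0%) held no member. The stretches lost whole had a median length of 1800 bp and supplied 51.3% of the lost bins, and the longest of them measured 19600 bp. Stretches lost in part had a median of 5200 bp. Stretches of 1 to 1.8 kb lost 44.7% of their bins, those of 5 to 9.8 kb lost 27.02%, and the 276 stretches of 20 kb or longer lost 7.53%, none of them whole. The outermost bin of a stretch was lost in 42.4% of cases, bins 1 to 2 kb inside in 27.6%, and bins more than 10 kb inside in 3.39%. Within stretches of 10 kb or longer, the same decline ran from 34.1% at the outermost bin to 23.2% at 1 to 2 kb and 10.8% at 5 to 10 kb.

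**Figure D2:**
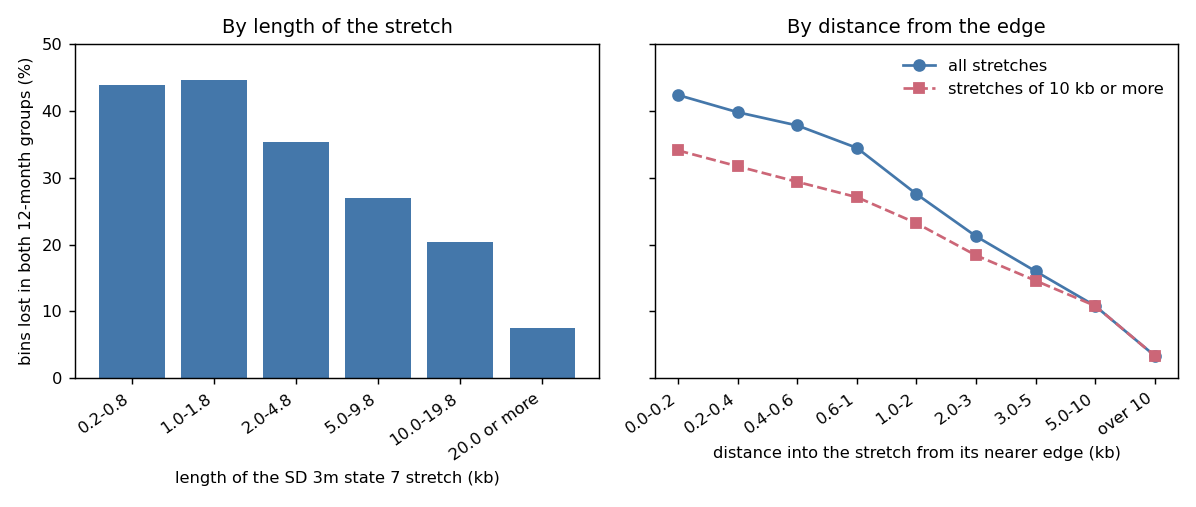
Percent of SD 3m state 7 bins that were lost in both 12-month groups, by the length of the stretch in kb (left, bars) and by the distance in kb from the nearer edge of the stretch (right, lines for all stretches and for those of 10 kb or longer). The share falls from 44.7% in stretches of 1 to 1.8 kb to 7.53% in those of 20 kb or more, and from 42.4% at the edge to 3.39% beyond 10 kb.

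The surroundings of the lost stretches in young liver differed from those of the kept ones. Of the bins bordering a stretch that was lost whole, 13.6% were in state 1 in SD 3m, against 2.21% for stretches kept whole in all 3 groups. State 6 bordered 3.49% of the former, and state 8 bordered 81.0% of the former and 97.0% of the latter. Over bins, 15.3% of the lost ones lay within 5 kb of an active TSS state of SD 3m. This compares with 4.31% of the kept ones and 5.01% of all autosomal bins. This share within 5 kb of state 1 was higher among lost than among kept bins on 19 of 19 autosomes. Bins lost in SD 12m only had 11.5%, and those lost in CR 12m only 5.60%. Within 5 kb of any of states 1 to 5 in SD 3m lay 24.1% of the lost bins. The kept bins had 5.70% there and all autosomal bins 32.6%. At 12 months, 23.1% of the bins bordering the 5757 member regions were in state 7 in SD 12m and 7.31% in CR 12m.

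Lost bins were closer to genes' starts than kept bins. Of the lost bins, 2577 (4.40%) lay within 2 kb of the TSS of the longest curated RefSeq transcript of a gene, against 1.91% of kept and 3.67% of all autosomal bins. The lost share was the higher on 17 of 19 autosomes. For bins at least 1 kb inside their stretch the shares were 2.60% for lost and 1.80% for kept bins, so that the lost share fell below that of all autosomal bins. State 7 bins less than 0.5 kb from a TSS were lost in 44.8% of cases, those 2 to 5 kb away in 33.0%, and those 50 kb or further in 22.3%. Lost bins lay within gene bodies in 27.4% of cases and in exons in 2.09%, against 30.4% and 3.74% of the kept bins and 40.4% and 2.67% of all autosomal bins. In the profile around TSS, lost bins were 1.54 times as frequent as all bins in the 0.5 kb downstream of the TSS, and kept bins 0.441 times.

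**Figure D3:**
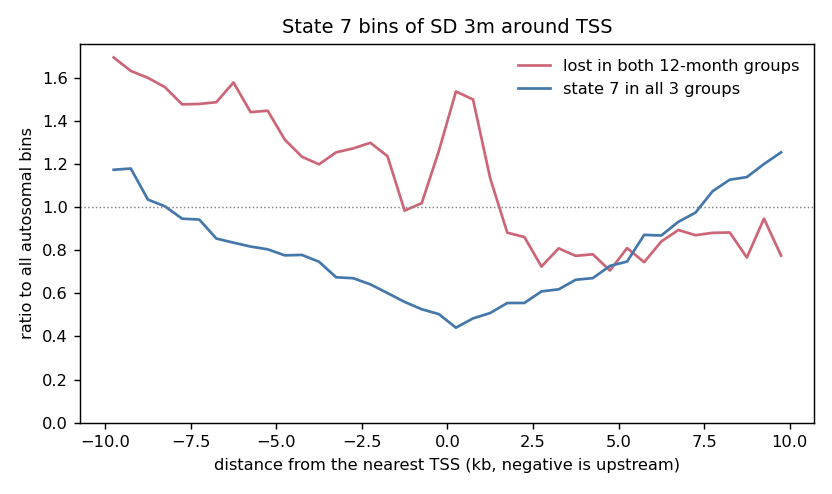
Frequency of lost and of kept state 7 bins in steps of 0.5 kb around the nearest TSS, as a ratio to all autosomal bins (dotted line at 1), by distance in kb with negative values upstream. Lost bins are at 1.54 just downstream of the TSS, where kept bins are at their lowest (0.441). The ratio of lost bins is below 1 from the step centred at 1750 bp downstream (0.881) onward. Upstream it is below 1 in the step centred at -1250 bp (0.983). The highest ratio of lost bins is upstream, 1.69 in the step centred at -9750 bp.

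Base composition separated lost from kept bins by little. Lost bins had a mean GC content of 40.2% and 1.61 CpG per bin, kept bins 39.5% and 1.37, and all autosomal bins 41.9% and 1.70. GC content was higher in lost than in kept bins on 15 of 19 autosomes. Repeat-masked bases made up 44.3% of the lost bins, 44.9% of the kept bins and 33.5% of all autosomal bins. More than 5 kb from a TSS, GC content was 39.6% in lost and 39.5% in kept bins.

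The destinations differed in composition and position far more than lost and kept bins did. Bins in state 8 in both groups had 39.5% GC, 1.31 CpG per bin and 45.9% repeat bases, and 2.31% of them lay within 2 kb of a TSS. Bins that became Polycomb-repressed state 6 in both had 40.9% GC, 1.80 CpG and 34.7% repeat bases, and 11.4% lay within 2 kb of a TSS, while 8.46% lay within 5 kb of state 1 in SD 3m. Bins in state 4 in both had 46.7% GC and 4.50 CpG, and 80.0% of them lay within 5 kb of state 1 in SD 3m. Bins in state 1 in both had 55.4% GC, 10.7 CpG and 26.9% repeat bases, 48.8% lay within 2 kb of a TSS and 66.7% within 1 kb of state 1 in SD 3m. Bins in state 5 in both lay within gene bodies in 90.8% of cases, but they number only 142.

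The chromosomes contributed unequally. The lost share of state 7 bins ran from 15.2% on chromosome 17 and 17.6% on chromosome 4 to 38.4% on chromosome 6, 39.3% on chromosome 15 and 64.7% on chromosome 19, where 1956 of 3023 bins were lost. The windows of 1 Mb with most lost bins were then looked up, a choice made after the values were seen. The window at chr19:39000001-40000000 came highest, with 963 of its 1174 state 7 bins lost (82.0%), and it holds the genes Cyp2c55, Cyp2c65, Cyp2c66, Cyp2c29, Cyp2c39, Cyp2c38, Cyp2c67, Cyp2c68, Cyp2c40, Cyp2c69 and Cyp2c37. These encode cytochrome P450 enzymes, which oxidise drugs, fatty acids and steroids in the liver. Without this window chromosome 19 lost 53.7%, still the highest share of an autosome. Of the 20 windows with most lost bins, the others with 3 or more P450 genes were chr5:145000001-146000000 with Cyp3a genes (506 of 653 bins lost), chr7:26000001-27000000 with Cyp2a and Cyp2b genes (466 of 546), chr7:27000001-28000000 with Cyp2a12, Cyp2f2 and Cyp2t4 (353 of 782), chr15:82000001-83000000 with Cyp2d genes (246 of 258) and chr4:96000001-97000000 with Cyp2j genes (215 of 535). The lost bins of a window need not lie nearest to its P450 genes. Lost bins nearest to Cyp2a and Cyp2b genes numbered only 53 and 156. The window chr7:26000001-27000000 also holds a region of 84 bins over Nlrp9c. In chr7:27000001-28000000 lie 7 genes of the zinc finger list and a region of 98 bins over the pseudogene Gm29810. Slc22a genes lay in chr19:8000001-9000000 (459 of 567) and chr19:7000001-8000000 (209 of 219). Windows rich in zinc finger or vomeronasal receptor genes also held many lost bins, but these were a smaller part of the state 7 there. The window chr13:67000001-68000000, with 24 genes of the zinc finger list, lost 594 of 2561 bins, and chr5:109000001-110000000, with 8 vomeronasal receptor genes, lost 316 of 2603. The 10 windows with most lost bins held 8.08% of all lost bins and 4.85% of the SD 3m state 7 bins, and the 100 windows with most held 28.7% of the lost bins. Of 2473 windows, 2040 had a state 7 bin in SD 3m and 1763 had a lost bin.

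**Figure D4:**
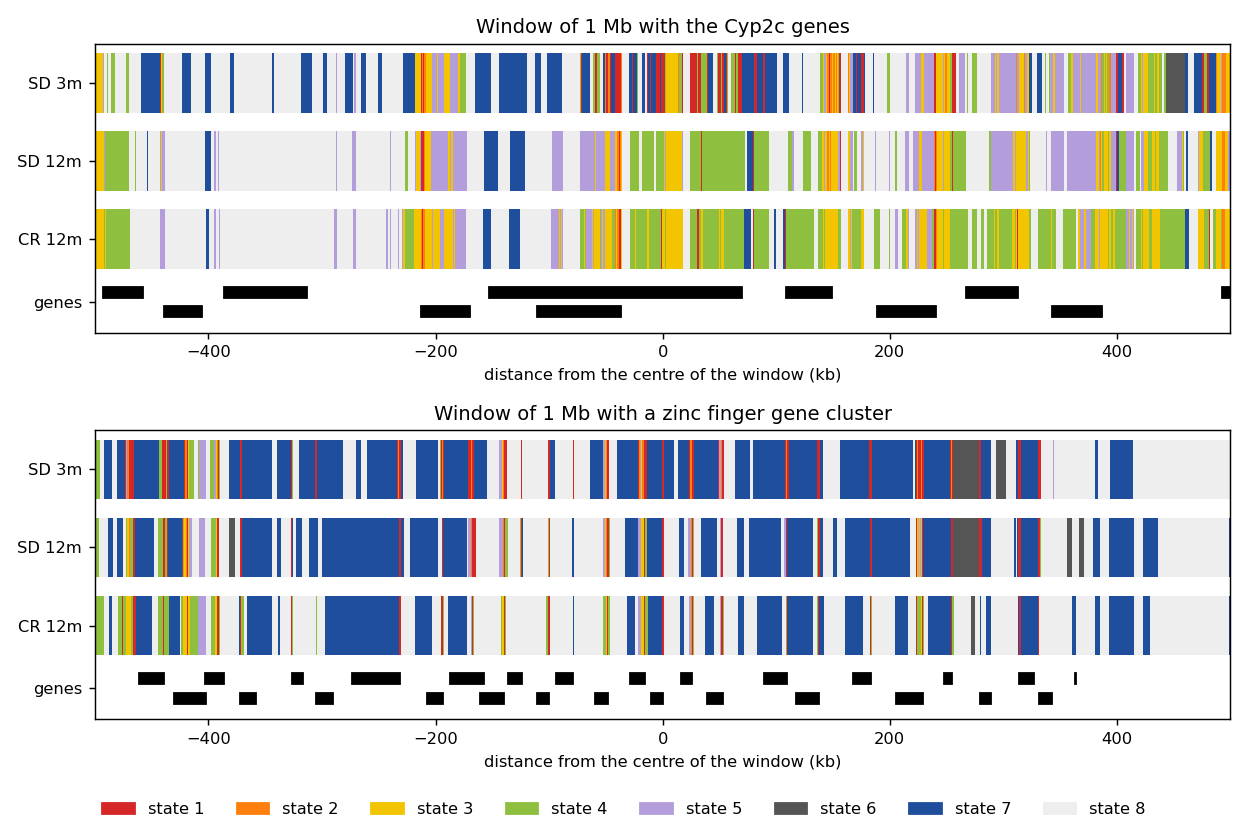
State of every bin of 200 bp in the 3 groups along the 1 Mb window with the Cyp2c genes (top) and along the 1 Mb window with 24 zinc finger genes (bottom), by distance in kb from the centre of the window, with protein-coding genes as black bars. In the top window 963 of 1174 state 7 bins of SD 3m (dark blue) are lost and states 8, 4 and 5 take their place, whereas in the bottom window 594 of 2561 are lost and long state 7 blocks remain.

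Gene families were then compared by assigning each state 7 bin of SD 3m to its nearest RefSeq gene, against the 24.8% lost over all of them. Bins nearest to cytochrome P450 genes were lost in 72.7% of cases (2451 of 3370), and kept in 15.5%. The loss involved 51 of the 53 P450 genes that had any state 7 bin nearest to them, against 3280 of 4397 over all genes. Every such bin was lost for 30 of the 53. That count was not made over all genes, so it does not set P450 genes apart from others. Lost P450 bins lay on 8 chromosomes, and the share was 67.8% without the Cyp2c genes. In stretches of 2 kb to under 10 kb, where 31.0% of all bins were lost, the P450 share was 82.0%, the highest among the lists with at least 300 bins. Membrane transporters of the Slc, Slco and Abc families (39.5% of 4686) and conjugation enzymes (38.3% of 1382), which attach glucuronate, glutathione or sulfate to drugs and hormones, lay above the overall share as well. Slc22a genes alone supplied 677 of the 1853 lost transporter bins, from 804 of the 4686. Developmental transcription factors lost 46.3% of 544 bins, collagens 32.5% of 492 and interferon genes 33.2% of 431. Zinc finger proteins, many of which silence retrotransposons, lost only 11.1% of 25116 bins and kept 76.8%, and vomeronasal receptors, which sense pheromones in the nose, lost 10.2% of 7690 and kept 65.6%. The zinc finger bins lay in long stretches (median 28 kb, against 7.8 kb over all bins), and in stretches of 2 kb to under 10 kb their lost share was 32.5%, close to the 31.0% of all bins there. Olfactory receptors lost 20.997% of 4977 bins, microRNA genes 23.0% of 3092, ion channels 20.3% of 1330, neurotransmitter receptors 22.3% of 1898, oxidative phosphorylation genes 22.3% of 1298 and ribosomal proteins 16.4% of 324. Pseudogenes lost 15.1% of 6998 and lncRNA genes 26.3% of 36293. Keratins (38 bins), chemokines and their receptors (98), defensins (39) and histones (5) had few state 7 bins nearest to them, and small nucleolar RNA genes had 0.

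**Figure D5:**
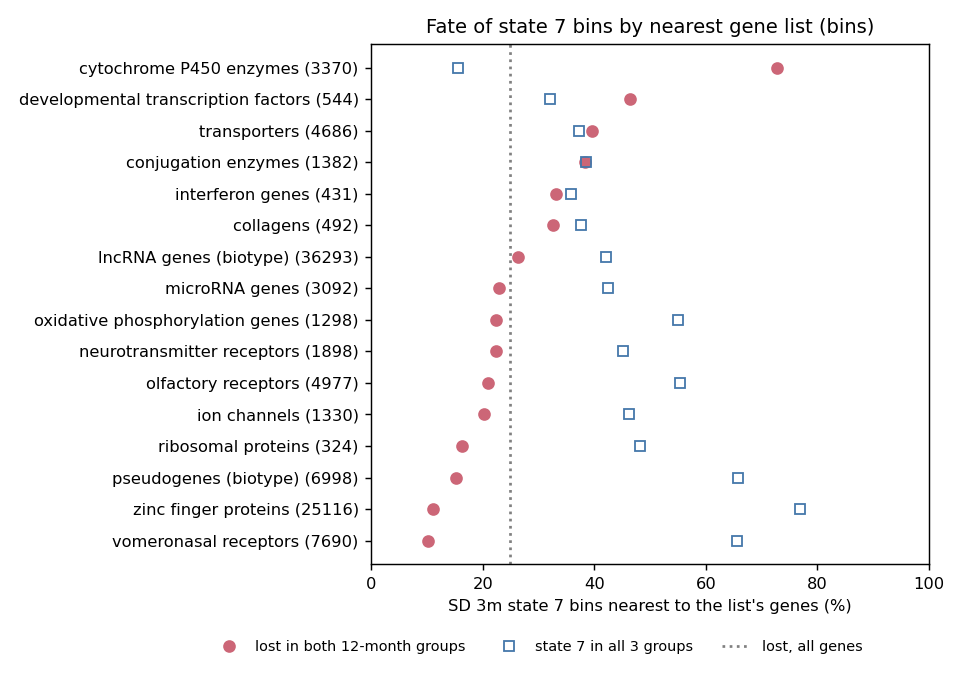
Percent of SD 3m state 7 bins nearest to the genes of each list that were lost in both 12-month groups (filled circles) and that stayed in state 7 in all groups (open squares), for lists with at least 300 such bins (number in parentheses). Cytochrome P450 enzymes stand highest for loss (72.7%) and vomeronasal receptors lowest (10.2%), with the dotted line at 24.8% for all genes.

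Among the P450 subfamilies, which sit in clusters on 1 chromosome each, the lost share was 81.4% for Cyp2c (990 of 1216 bins, 198 kb), 78.6% for Cyp3a (539 of 686), 95.3% for Cyp2d (246 of 258), 100% for Cyp2b (156 of 156) and Cyp2a (53 of 53), and 43.7% for Cyp2j (215 of 492). Cyp3a enzymes metabolise a large share of drugs, and Cyp2a and Cyp2b enzymes oxidise steroids and xenobiotics. The share in the active enhancer state 4 varied among these clusters. It was 3.26% and 3.72% for Cyp2j and 6.41% and 17.9% for Cyp2b (SD 12m and CR 12m). State 4 held 22.2% of the lost Cyp2c bins in SD 12m and 36.6% in CR 12m, 18.9% and 33.4% of those of Cyp3a, and 37.0% and 52.0% of those of Cyp2d, against 5.98% and 6.55% of all lost bins. For lost bins nearest to any P450 gene the shares in state 4 were 18.6% (SD 12m) and 31.9% (CR 12m), and those in state 8 were 72.4% and 59.8%. Of the SD 3m state 7 bins nearest to P450 genes, 27.9% lay within 5 kb of state 1, against 7.53% over all genes, and 68.6% of their bases were repeats, against 44.5%. Other hepatic families, were picked after their values were seen. Slc22a organic ion transporters lost 84.2% (677 of 804), Serpina protease inhibitors 72.6% (77 of 106), Ugt2b glucuronosyltransferases 62.8% (150 of 239), Slco1a bile acid and organic anion carriers 45.3% (187 of 413), major urinary protein genes (Mup) 43.4% of 290 bins and Sult2a sulfotransferases 41.4% (225 of 543). Other families of these lists lay below the overall 24.8%, such as Sult3a sulfotransferases (19.7% of 503), Slc39a zinc transporters (10.7% of 468), Slc10a bile acid carriers (4.91% of 224) and Abcg sterol transporters (2.57% of 272). The lost bins at Slc22a genes were mostly in state 8 (89.1% for SD 12m, 85.1% for CR 12m). Families of this kind hold near-identical copies, among which short reads can be placed at the wrong one, and how far that affects their labels was not tested.

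The 10 longest member regions illustrate these surroundings. The longest, chr5:145927401-145958200 (30.8 kb, 154 bins), lay between genes of the Cyp3a cluster, 18.99 kb from Cyp3a25, in a state 7 stretch of 39 kb. In SD 12m 142 of its bins were in state 8 and 12 in state 4, and in CR 12m 135 and 19, and 85.3% of its bases were repeats. Next came chr19:8042801-8065200 (22.4 kb), which overlaps the organic anion transporter gene Slc22a28, with 112 of 112 bins in state 8 in both groups. The region chr7:27777401-27797000 (19.6 kb), over the pseudogene Gm29810, is the longest stretch that was lost whole, with 77 bins in state 8 and 21 in state 6 for SD 12m, against 54 and 44 for CR 12m. The region chr3:97496401-97515200 (18.8 kb), 31.1 kb from the lncRNA gene Gm40102, went to the Polycomb state in 91 of 94 bins (SD 12m) and 92 (CR 12m). In the same Slc22a cluster, chr19:8295201-8313600 (18.4 kb), 5.55 kb from the lncRNA gene Gm41804, went to state 8 in all its 92 bins under both diets, as did chr7:106509601-106527800 (18.2 kb, over Gm8995) and chr7:26389201-26406000 (16.8 kb, over Nlrp9c, a gene of the NLR family). The region chr5:109559801-109577800 (18 kb), over the vomeronasal pseudogene Vmn2r-ps22, had 56 bins in state 6 (SD 12m) and 17 (CR 12m). The region chr8:69626001-69642800 (16.8 kb), 0.444 kb upstream of the zinc finger gene Zfp868, bordered on state 1 in SD 3m and on state 4 at 12 months. The last, chr1:8882801-8899000 (16.2 kb), lies inside Sntg1, a syntrophin gene, with 81 bins in state 8 (SD 12m) and 68 (CR 12m), where the other 13 were in state 4.

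The longest regions for single destinations gave the following. State 6 in both was longest at chr2:97467001-97475000 (8 kb), inside Lrrc4c, which encodes a synaptic adhesion protein, with 40 of 40 bins in state 6. State 5 in both was longest at chr19:39447401-39449000 (1.6 kb), where Cyp2c39 and Cyp2c38 overlap, and state 1 in both at chr2:30227201-30229800 (2.6 kb), 7.397 kb from the lncRNA gene 1700084E18Rik, with state 1 on both sides in each group. The combination of state 6 in SD 12m with state 8 in CR 12m was longest at chr13:65188001-65195200 (7.2 kb), inside Nlrp4f.

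Of 24963 autosomal TSS, 374 lay in a state 7 bin in SD 3m, of which 169 were in a lost bin and 105 in a kept one. The 169 comprised 144 protein-coding, 16 lncRNA and 5 microRNA genes among others. TSS were thus 1.42 times as frequent in lost bins as in the genome, and 0.437 times in kept bins. The destinations of these TSS were unlike those of the lost bins as a whole, as 48 (28.4%) were in state 8 in both groups, 40 in state 4, 18 in state 6 and 17 in state 1, and 72 (42.6%) were in one of states 1 to 5 in both. CpG content and position went with the destination. Of the 40 TSS that went to state 4 in both groups, 39 had 5 or more CpG in their bin (median 30) and 34 lay within 1 kb of state 1 in SD 3m. Of the 17 that went to state 1, 15 had 5 or more CpG and 13 lay within 1 kb of state 1, and of the 48 that went to state 8, 19 had 5 or more CpG (median 3) and 9 lay within 1 kb of state 1. The 18 that went to state 6 had a median of 9.5 CpG, and 1 lay within 1 kb of state 1.

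Promoters of 4 genes, each with the longest member region among protein-coding TSS of its destination that have an entry in the promoter table, are shown for the destinations. They run from 250 bases before to 50 after the TSS, 5′ to 3′ on the gene's strand (RefSeq, GRCm38.p6, with entries for 115 of the 169 genes), with CpG in capitals.
Nlrp9c, state 8 in both, chr7:26403651-26403950, minus strand: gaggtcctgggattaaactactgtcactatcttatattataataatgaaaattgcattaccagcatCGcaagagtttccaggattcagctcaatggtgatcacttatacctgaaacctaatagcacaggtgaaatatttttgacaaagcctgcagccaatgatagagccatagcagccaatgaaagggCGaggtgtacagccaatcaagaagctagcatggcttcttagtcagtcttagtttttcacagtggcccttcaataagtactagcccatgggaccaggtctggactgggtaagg
Olfr401, state 6 in both, chr11:74121041-74121340, plus strand: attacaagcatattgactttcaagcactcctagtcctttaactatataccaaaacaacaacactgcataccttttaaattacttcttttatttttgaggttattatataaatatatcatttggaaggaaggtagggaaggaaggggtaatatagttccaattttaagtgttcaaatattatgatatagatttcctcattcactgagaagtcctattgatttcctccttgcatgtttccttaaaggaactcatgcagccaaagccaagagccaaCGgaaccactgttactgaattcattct
Cyp3a16, state 4 in both, chr5:145469674-145469973, minus strand: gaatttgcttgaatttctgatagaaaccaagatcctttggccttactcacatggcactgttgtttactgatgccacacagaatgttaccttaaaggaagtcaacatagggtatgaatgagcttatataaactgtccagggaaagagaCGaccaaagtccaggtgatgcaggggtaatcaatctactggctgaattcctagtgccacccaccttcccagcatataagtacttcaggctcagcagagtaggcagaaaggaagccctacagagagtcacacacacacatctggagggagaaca
Dnaja4, state 1 in both, chr9:54699033-54699332, plus strand: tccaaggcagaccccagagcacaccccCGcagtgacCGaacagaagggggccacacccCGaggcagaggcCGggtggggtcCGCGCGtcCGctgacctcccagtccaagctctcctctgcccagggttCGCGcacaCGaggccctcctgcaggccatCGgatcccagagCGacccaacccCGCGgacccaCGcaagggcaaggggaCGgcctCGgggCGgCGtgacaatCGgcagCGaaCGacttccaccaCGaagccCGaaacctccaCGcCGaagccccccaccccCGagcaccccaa
Dnaja4, a gene of the DNAJ co-chaperone family, held 28 CpG in its promoter, as many as or more than which 14.2% of all 32851 promoters have. Olfr401, an olfactory receptor, and Cyp3a16, a cytochrome P450, held 1 CpG each, and 94.6% of promoters have at least that many. Nlrp9c held 2, and 85.9% of promoters have as many. They were chosen by region length, and Cyp3a16 and Olfr401 lie at the low end of CpG number for their destinations, since Cyp3a16 is the only one of the 40 TSS in state 4 with fewer than 5 CpG in its bin.

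The longest member regions over a TSS that was in state 8 in both groups belonged to Nlrp9c (16.8 kb), Olfr535 (14.2 kb), the testis ubiquitin ligase gene Rnf148 (11.4 kb), the zinc finger gene Zfp595 (11.2 kb), Klra2 (9 kb), of the Ly49 receptor family, Zfp660 (7.6 kb) and Pcdhb8 (6.6 kb), a neuronal protocadherin. The sperm genes Capza3 and Plcz1 share a region of 5.4 kb, and Olfr767 and Olfr1024 lay in regions of 5.6 kb and 5 kb. Mterf1a, a regulator of mitochondrial transcription, was in state 8 in both although its TSS bin held 21 CpG and lay 0.4 kb from state 1 in SD 3m. The interferon-inducible genes Ifi208, Ifi213 and Oas1a were in state 8 in both, in regions of 4.6 kb, 2.8 kb and 1 kb, and they are the 3 TSS of the interferon list that were in state 7 in SD 3m. The microRNA genes Mir713 (12.6 kb), Mir6343 (9.4 kb), Mir335 (1.6 kb) and Mir5124b (1 kb) were in state 8 in both as well.

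TSS that went to state 6 in both groups included Olfr401 (8.4 kb), Klf14 (5.2 kb, 26 CpG in the TSS bin), a maternally expressed Krüppel-like factor, Pcdhga9 (5 kb) and the endothelin receptor gene Ednrb (4.4 kb). Ccdc39, a gene of motile cilia (5.6 kb), Col3a1, a fibrillar collagen (3 kb), and Vmn2r10 (1.2 kb) were in state 6 under the standard diet and in state 8 under restriction. TSS that went to state 4 in both included Cyp3a16 (5 kb) and Sox12 (1.6 kb). Sox9, a transcription factor of bile duct cells, went to state 4 under the standard diet and to state 1 under restriction, at 419 kb from the nearest state 1 bin of SD 3m.

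The TSS bins of 15 protein-coding genes went to the active TSS state under both diets. By length of the region these were Dnaja4 (4 kb), Cadps2 (3.6 kb), Spata7 (3 kb), Serpina1c (2.2 kb), Hnrnpa0 (2 kb), Dyrk2 (1.4 kb), Ankrd11, Ap1s3 and Tob1 (1.2 kb each), 4931408C20Rik, Kif20b and Tc2n (1 kb each) and Chd1, Sap30l and Tent5c (0.8 kb each). Serpina1c encodes an alpha-1 antitrypsin of hepatocytes, Hnrnpa0 an RNA-binding protein, Dyrk2 a kinase, Tob1 an antiproliferative protein and Chd1 a chromatin remodeller. Of these 15, 13 had 5 or more CpG in the TSS bin and 11 lay within 1 kb of the active TSS state of young liver, for example Chd1 with 38 CpG at 0.2 kb and Hnrnpa0 with 31 CpG at 0.6 kb. The exceptions in CpG were Serpina1c, with 1, and 4931408C20Rik, with 0. Of the zinc finger genes, Zfp872 and Zfp418 went to state 1 under the standard diet, and under restriction to state 4 and to state 8. The histone gene H2ac18, in a region of 1 bin, went to state 4 under the standard diet and to state 8 under restriction.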

How the data were processed

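ChIP-seq libraries of 4 histone marks from 31 livers of C57BL/6 mice (108 libraries) were grouped by the sample labels. Per the labels, reads were mapped by the authors with BWA 0.6.2-r126 to mm10. They removed poorly mapped and duplicate reads with SAMtools 0.1.18, merged the libraries of a group, trained a ChromHMM model with 8 states and deposited the state label of every 200 bp bin. The deposited labels carry the merging and the smoothing of the model, and no read counts. SD 6m was not analysed here, and some genes and sequences are not reported here.

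Bins of chromosomes 1 to 19 were classified with numpy 2.4.6 and pandas 2.3.3 in Python 3.11.15, and adjacent members were merged. Genes and TSS came from the longest curated RefSeq transcript (26089 genes) and repeats from lower-case bases of GRCm38.p6. Lists were formed by symbol start. Each state 7 bin was assigned to the nearest transcript by its midpoint. Base composition used bins without unassembled bases. The functions were tested on simulated segmentations. Members and lists were chosen with earlier results of these data known. Genes with a TSS in a member were named by region length (20 longest, up to 15 that went to states 1 or 2, and up to 4 a list), and regions by length overall (10) and by destination. The limits given are Wilson 95% intervals over bins, which are treated as independent although many are adjacent. Alternatives were chromosome X, edges, length, repeats, windows of 1 kb and each chromosome left out.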

Additional observations from a re-analysis of the deposited data

Results flagged for a closer look

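Chromosome X lay outside the autosomal comparison and is given here for that reason. Of its 12165 state 7 bins in SD 3m, 4981 (40.9%, Wilson 95% limits 40.1 to 41.8) were lost in both 12-month groups and 29.9% were kept in both. State 8 held 43.1% of the lost bins in SD 12m and 74.6% in CR 12m.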

How the results depend on the processing

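No paired analysis was possible because each group has 1 segmentation of merged libraries and no test was run. The share of state 7 bins lost (24.8%) was 25.6% with chromosome X, 17.8% at least 1 kb from the edge of a stretch, 24.4% in stretches of at least 1 kb and 25.1% in bins under 50% repeat bases. In the same order without stretch length, the share of lost bins in state 8 was 79.8%, 87.2% and 80.7% in SD 12m and 83.8%, 87.9% and 83.6% in CR 12m, and the share with the same state in both was 85.7%, 89.9% and 86.7%. The share within 2 kb of a TSS was 2.60% at least 1 kb from an edge, 4.18% in stretches and 4.16% in member regions of at least 1 kb, and 6.34% in bins under 50% repeat bases. GC content was 40.0% with chromosome X, 40.0% away from edges and 40.1% in member regions of at least 1 kb. With the most frequent state of 1 kb windows these 6 values stayed within their limits (for GC content, normal limits of the mean over bins). Such limits treat bins as independent, although the 58592 lost bins form 5757 regions, so staying within them is no test of stability. Leaving out each autosome in turn gave 23.9% to 25.5% lost, 82.4% to 83.8% in state 8 in SD 12m, 84.2% to 85.3% in CR 12m, 87.5% to 88.2% with the same state, 4.29% to 4.54% near a TSS and 40.1% to 40.3% GC. Closing gaps of 1 bin left 5738 regions. The following were chosen after seeing the data, chromosome 19 without its highest window (53.7%) and the P450 genes without Cyp2c (67.8%). The cause of these shifts was not tested. The unknown depth of the merged reads limits which bins could be labelled at all.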
